A study of Rattus norvegicus with 8 samples.

Results

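The oligoadenylate synthetases and the proteins that detect viral RNA inside the cell were followed here in rat liver after activation of the glucocorticoid receptor, the liver X receptors (LXRs) or both. The set was chosen by gene name, with earlier results of these data known. It holds 10 genes: Oas1a, Oas1b, Oasl and Oas2 of the synthetase family, the receptors Ifih1, Dhx58 and Ddx58, the helicase Ddx60, the kinase Eif2ak2 and the Z-nucleic acid sensor Zbp1. Every probe set that the platform annotation assigns to 1 of these symbols alone was taken, which gave 11 probe sets for 9 of the 10 genes, out of 31042 probe sets that name 14217 genes in all. Dhx58 has 3 probe sets and the other 8 genes have 1 each. Ddx58 is written Rig1 in that annotation and was matched by its gene identifier, and no probe set used here carries the name Oas2 alone. The livers came from male Sprague-Dawley rats in 4 groups of 2 arrays each. Dex+GW3965 rats were gavaged for 3 days with GW3965, a synthetic LXR agonist, at 50 mg/kg and injected into the muscle on the last day with dexamethasone, a synthetic glucocorticoid, at 1.5 mg/kg. Dex rats received the gavage vehicle and the same dexamethasone injection, GW3965 rats received the same GW3965 gavage and saline, and vehicle rats received gavage vehicle and saline. All livers were taken 24 h after the injection. Each group holds 2 animals per the methods, whereas in the labels its arrays share a liver number and differ by a letter, a or b. The p-values therefore rest on the spread between the arrays of a group, which may be technical. That spread was pooled over the 4 groups and drawn toward the spread of the other tested probe sets.

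Cells sense the RNA of viruses in the cytosol through several families of proteins that also belong to the genes most strongly induced by interferon. Oligoadenylate synthetases bind double-stranded RNA and make short oligoadenylates that activate RNase L, which then cuts viral and cellular RNA. The RIG-I-like receptors RIG-I (Ddx58) and MDA5 (Ifih1) bind viral RNA and signal through the mitochondrial adaptor MAVS to produce interferon, LGP2 (Dhx58) modulates both, and PKR (Eif2ak2) stops translation by phosphorylating eIF2 alpha. Interferon in turn raises the transcription of these genes through ISGF3, a transcription factor complex that binds the interferon-stimulated response element (ISRE).

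The promoters are shown because most of them carry this element next to the transcript start. RefSeq promoter windows of the rat build GRCr8, from 250 bases before to 50 bases after the start, were found for 6 of the 10 genes. On either strand, the ISRE core GAAANNGAAA was present in 5 of the 6 windows, against 3.92% of the 33469 windows of the same length in the table. The 100 bases before the start of each gene are printed below, 5′ to 3′ on the strand of the gene, with the bases of each ISRE core in capitals. They lie at chr12:41330366-41330465 on the plus strand for Oas1a, chr12:41395853-41395952 on the minus strand for Oas1b, chr16:33208840-33208939 on the minus strand for Ddx60, chr3:67683969-67684068 on the minus strand for Ifih1, chr6:21941054-21941153 on the plus strand for Eif2ak2 and chr12:47356293-47356392 on the minus strand for Oasl.
Oas1a: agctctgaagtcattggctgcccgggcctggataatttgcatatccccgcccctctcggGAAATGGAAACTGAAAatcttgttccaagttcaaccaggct
Oas1b: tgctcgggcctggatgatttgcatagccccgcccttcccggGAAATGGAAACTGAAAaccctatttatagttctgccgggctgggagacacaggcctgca
Ddx60: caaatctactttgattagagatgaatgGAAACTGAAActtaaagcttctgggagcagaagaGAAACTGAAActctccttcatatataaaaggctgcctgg
Ifih1: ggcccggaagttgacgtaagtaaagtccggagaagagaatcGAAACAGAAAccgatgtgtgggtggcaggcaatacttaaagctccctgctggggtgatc
Eif2ak2: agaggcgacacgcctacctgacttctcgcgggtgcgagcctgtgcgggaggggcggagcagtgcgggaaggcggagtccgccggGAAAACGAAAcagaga
Oasl: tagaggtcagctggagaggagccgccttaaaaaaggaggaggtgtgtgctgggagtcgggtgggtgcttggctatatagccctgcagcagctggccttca
In Oas1a and Oas1b, 2 cores overlap in 1 run, whose first base lies 41 bases before the start in Oas1a and 59 bases before it in Oas1b. Over their whole windows these 2 promoters were identical at 235 of 319 aligned columns (73.7%). Ddx60 held 2 separate cores, Ifih1 and Eif2ak2 held 1 each, and the letters were not in the window of Oasl. The palindrome TTCNNNGAA, the core of the gamma-activated site of interferon signaling, was in the windows of Oas1a and Oas1b and in 8.87% of all windows. The letters ACANNNTGT, the core of the glucocorticoid response element, were in 0 of the 6 windows and in 6.86% of all windows. These are matches of letters in 1 window for each gene, and no binding was measured.

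**Figure D1:**
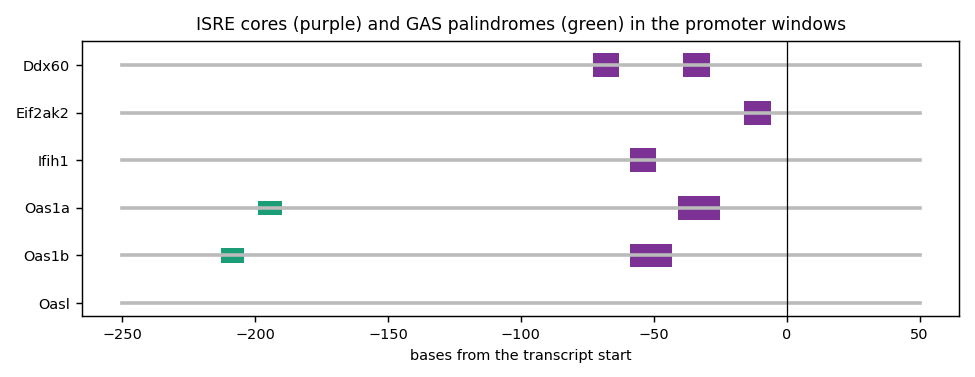
Positions of the ISRE core (purple) and of the gamma-activated site palindrome (green) in the promoter windows of 6 genes, in bases from the transcript start (black line). The ISRE cores lie within 73 bases before the start in 5 genes, and the row of Oasl is empty.

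All values are log2 signals of an Affymetrix rat genome array, on which a probe set averages many short probes for 1 transcript. A level is compared here only with the same probe set on other arrays. The array medians lay between 5.48 and 5.52, and their mean, 5.49, served as the background level. Where 1 of the 2 group means compared was below it, only a bound ("at least") is printed, computed with each array's median in place of any lower value. The p-value beside a bound belongs to the change as fitted on all values, including those under background. The bound itself was not tested. Markers of hepatocytes, the main cells of the liver, read 13.4 to 14.9 on all arrays, near the top of the scale. Of 11 interferon genes looked for, 3 were matched to a probe set of 1 gene symbol. These, Ifnb1, Ifnk and Ifng, were not above background in any group and ranged from 3.12 to 4.97 over all 8 arrays. The other interferon genes were not read. In whole tissue, a change in the number of cells that express a gene and a change in RNA per cell cannot be told apart.

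Transcripts of this set were highest in Dex+GW3965 livers. The 6 probe sets that lay above their array's median on all 8 arrays, those of Oas1a, Oasl, Ifih1, Ddx58 and Eif2ak2 and the brightest of Dhx58, were all higher in Dex+GW3965 than in vehicle livers (median log2 fold change 1.91, range 1.25 to 4.48). All 6 were also higher in Dex than in vehicle livers (median 1.20, range 0.56 to 3.99), and 5 of the 6 were higher in GW3965 than in vehicle livers (median 0.35, range 0.13 to 2.01). These 3 comparisons use the same vehicle arrays. Over all 16253 tested probe sets, 15.6% were higher and 21.2% lower in Dex+GW3965 than in vehicle livers, 17.2% were higher and 24.7% lower in Dex livers, and 5.93% were higher and 14.5% lower in GW3965 livers, and the median change was between -0.03 and -0.01 in each. After quantile normalization the GW3965 split was 7.43% higher and 9.26% lower. A probe set counts as higher or lower at an adjusted p under 0.05 in limma over all 16253. The methods' t-test was applied here to only the 2 log ratios of a comparison, formed between same-letter arrays. At an unadjusted p of 0.05 it called 7, 6 and 4 of the 11 probe sets higher in Dex+GW3965, Dex and GW3965 livers. It called 0 after adjustment, a step the methods do not describe, and their further cut-off on the z distribution was not applied. The other 5 probe sets, those of Oas1b, Ddx60 and Zbp1 and the dimmer 2 of Dhx58, passed the filter on low values through the groups where they were high, so they are given one by one below and not counted as support.

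**Figure D2:**
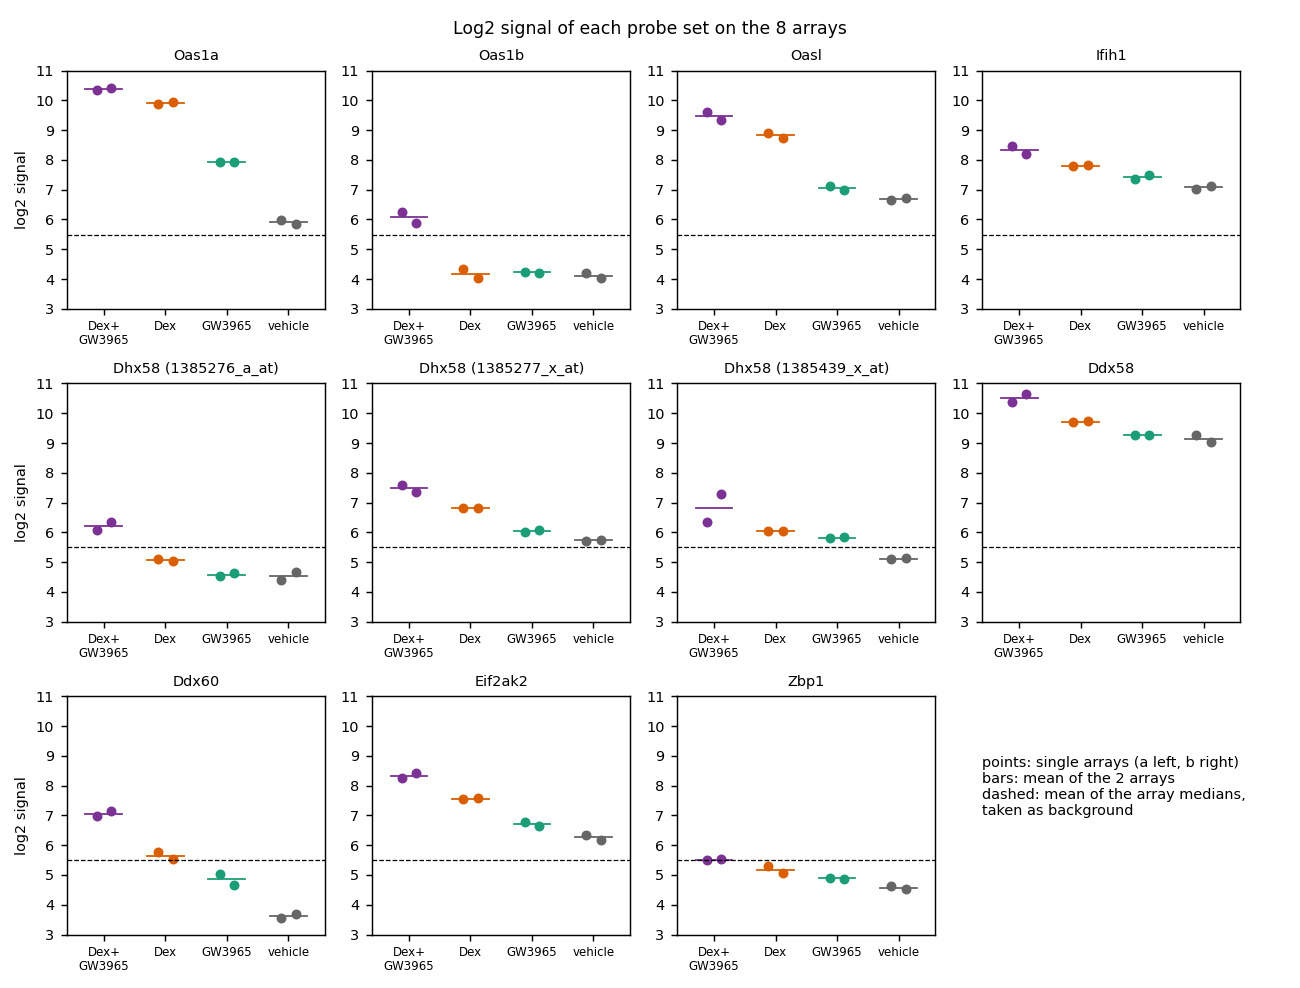
Log2 signal of each of the 11 probe sets (vertical axis) on the 8 arrays, by group (horizontal axis), with points for single arrays, a bar for the mean of 2 arrays and a dashed line at 5.49, taken as background. Dex+GW3965 is the highest group in every panel, and in the panels of Oas1b, Zbp1 and Dhx58 1385276_a_at its mean is the only one above the dashed line.

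Oas1a, which encodes a synthetase, changed most. Its level was 10.37 and 10.43 in Dex+GW3965 livers, 9.88 and 9.94 in Dex livers, 7.93 and 7.94 in GW3965 livers and 5.99 and 5.85 in vehicle livers. The 4 groups did not overlap, and the 2 arrays of a group lay within 0.14 of each other. Against vehicle, Oas1a rose 22.3-fold in Dex+GW3965 livers (log2 fold change 4.48 ± 0.06, SE, n = 2 each, limma adjusted p = 8.7e-19), 15.9-fold in Dex livers (3.99 ± 0.06, limma adjusted p = 2.2e-18) and 4.03-fold in GW3965 livers (2.01 ± 0.06, limma adjusted p = 2.2e-13). Oas1a was also 1.40-fold higher in Dex+GW3965 than in Dex livers (0.49 ± 0.06, limma adjusted p = 1.3e-05).

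Oas1b, also on chromosome 12, whose mouse counterpart confers resistance to flaviviruses, was read above background in Dex+GW3965 livers only. The level of Oas1b was 6.24 and 5.89 in Dex+GW3965 livers, 4.33 and 4.02 in Dex livers, 4.24 and 4.20 in GW3965 livers and 4.20 and 4.02 in vehicle livers. The arrays of the other 3 groups overlapped, and the probe set entered the test through Dex+GW3965 alone. In Dex+GW3965 livers Oas1b was at least 1.49-fold higher than in vehicle livers (limma adjusted p = 9.8e-09), at least 1.49-fold higher than in Dex livers (limma adjusted p = 4.9e-08) and at least 1.47-fold higher than in GW3965 livers (limma adjusted p = 2.1e-08). The single compounds gave no call, with log2 differences from vehicle of 0.06 in Dex livers (95% interval -0.26 to 0.38, limma adjusted p = 0.77) and 0.11 in GW3965 livers (-0.21 to 0.43, limma adjusted p = 0.68), between levels that were all under background. In Dex livers, where Oas1a was 15.9-fold above vehicle, the Oas1b arrays overlapped those of vehicle livers. A rise can go unseen under background, so no difference in response between Oas1a and Oas1b is read from this.

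Oasl encodes a synthetase-like protein whose human counterpart makes no oligoadenylates and enhances RIG-I signaling. Its signal was 9.60 and 9.35 in Dex+GW3965 livers, 8.91 and 8.75 in Dex livers, 7.12 and 6.98 in GW3965 livers and 6.67 and 6.72 in vehicle livers. The groups stood apart without overlap in that order. Oasl rose 6.88-fold in Dex+GW3965 livers (2.78 ± 0.08, limma adjusted p = 2.6e-14) and 4.40-fold in Dex livers (2.14 ± 0.08, limma adjusted p = 7.1e-13). In GW3965 livers the rise was 1.28-fold (0.36 ± 0.08, limma adjusted p = 0.0058), and without GW3965 replicate a it was no longer called (0.29, limma adjusted p = 0.088). A further probe set carries the symbols Oas1g and Oas1i together and was not counted: it read 8.75 and 8.82 in Dex+GW3965 livers, 8.09 and 8.05 in Dex livers, 6.54 and 6.26 in GW3965 livers and 6.11 and 5.86 in vehicle livers, with log2 fold changes against vehicle of 2.80, 2.08 and 0.41. Paralogs of this family share sequence, and the file does not show which transcript such a probe set bound.

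**Figure D3:**
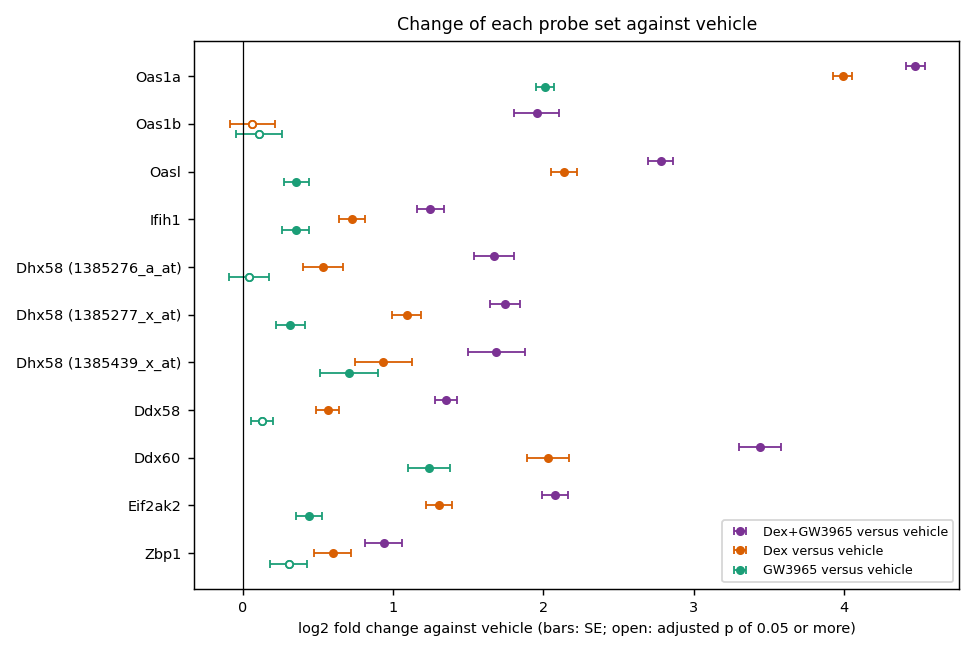
Log2 fold change against vehicle (horizontal axis, bars are SE) of each probe set (vertical axis) in Dex+GW3965, Dex and GW3965 livers, with open symbols at an adjusted p of 0.05 or more. Values are as fitted, so those of Oas1b, Ddx60, Zbp1 and the dimmer 2 Dhx58 probe sets start from a vehicle level under background.

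The RIG-I-like receptors rose by smaller folds than Oas1a and Oasl in Dex+GW3965 and Dex livers. Ddx58 was already well above background in vehicle livers: it read 10.36 and 10.64 in Dex+GW3965 livers, 9.70 and 9.73 in Dex livers, 9.27 and 9.28 in GW3965 livers and 9.26 and 9.04 in vehicle livers. The 2 GW3965 arrays were above vehicle a by less than the gap between the vehicle arrays. Ddx58 rose 2.55-fold in Dex+GW3965 livers (1.35 ± 0.07, limma adjusted p = 1e-10) and 1.48-fold in Dex livers (0.56 ± 0.07, limma adjusted p = 6.9e-06), while the difference between GW3965 and vehicle livers was 0.13 (95% interval -0.03 to 0.28, limma adjusted p = 0.27). Ddx58 was also 1.73-fold higher in Dex+GW3965 than in Dex livers (0.79 ± 0.07, limma adjusted p = 4.1e-07).

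Ifih1 stood at 8.46 and 8.19 in Dex+GW3965 livers, 7.78 and 7.82 in Dex livers, 7.35 and 7.51 in GW3965 livers and 7.03 and 7.13 in vehicle livers. Its groups did not overlap, and they kept the order of Oasl. Transcripts of Ifih1 rose 2.38-fold in Dex+GW3965 livers (1.25 ± 0.09, limma adjusted p = 3.1e-09), 1.66-fold in Dex livers (0.73 ± 0.09, limma adjusted p = 2.5e-06) and 1.28-fold in GW3965 livers (0.35 ± 0.09, limma adjusted p = 0.0086). The GW3965 call was lost without vehicle replicate a (0.30, limma adjusted p = 0.062) or without GW3965 replicate b (0.27, limma adjusted p = 0.14).

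Dhx58 was read first on its brightest probe set, 1385277_x_at, which gave 7.58 and 7.36 in Dex+GW3965 livers, 6.83 and 6.81 in Dex livers, 6.02 and 6.07 in GW3965 livers and 5.70 and 5.76 in vehicle livers. The groups again did not overlap. On this probe set Dhx58 rose 3.35-fold in Dex+GW3965 livers (1.74 ± 0.10, limma adjusted p = 1.2e-10), 2.13-fold in Dex livers (1.09 ± 0.10, limma adjusted p = 5.1e-08) and 1.25-fold in GW3965 livers (0.32 ± 0.10, limma adjusted p = 0.029). Leaving out any 1 of the 4 arrays of the GW3965 comparison ended that last call (limma adjusted p from 0.057 to 0.16). The probe set 1385276_a_at read 6.08 and 6.34 in Dex+GW3965 livers but was under background in Dex (5.10 and 5.04), GW3965 (4.53 and 4.62) and vehicle livers (4.41 and 4.66), so it was at least 1.65-fold higher in Dex+GW3965 than in vehicle livers (limma adjusted p = 1.4e-08). The probe set 1385439_x_at gave 6.34 and 7.27 in Dex+GW3965 livers, 6.05 in both Dex arrays, 5.80 and 5.85 in GW3965 livers and 5.10 and 5.13 in vehicle livers. Its Dex+GW3965 arrays lay 0.94 apart, the widest gap of any group on the 11 probe sets. Against vehicle it was at least 2.49-fold higher in Dex+GW3965 livers (limma adjusted p = 1.4e-06), at least 1.48-fold in Dex livers (limma adjusted p = 0.00065) and at least 1.26-fold in GW3965 livers (limma adjusted p = 0.014). The GW3965 call on this probe set was lost without vehicle replicate a, GW3965 replicate a or GW3965 replicate b (limma adjusted p = 0.058, 0.073 and 0.10), and its difference between Dex+GW3965 and Dex livers, 0.75 (limma adjusted p = 0.0079), was 0.28 without Dex+GW3965 replicate b (limma adjusted p = 0.18) and stood at the threshold without Dex replicate b (0.75, limma adjusted p = 0.050). The suffix x in a probe set name marks probes that may also bind other transcripts.

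Ddx60, an interferon-induced helicase described as an aid to the RIG-I-like receptors, was under background in vehicle and GW3965 livers. It read 6.98 and 7.15 in Dex+GW3965 livers, 5.76 and 5.54 in Dex livers, 5.04 and 4.68 in GW3965 livers and 3.55 and 3.69 in vehicle livers. The groups did not overlap. Ddx60 was at least 2.98-fold higher in Dex+GW3965 than in vehicle livers (limma adjusted p = 1.4e-12), 2.66-fold higher than in Dex livers (1.41 ± 0.14, limma adjusted p = 6.8e-07) and at least 1.12-fold higher in Dex than in vehicle livers (limma adjusted p = 1.4e-09). Between GW3965 and vehicle livers the fit gave a call (limma adjusted p = 4.4e-06), with both levels under background and hence no fold.

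Eif2ak2 read 8.25 and 8.43 in Dex+GW3965 livers, 7.55 and 7.59 in Dex livers, 6.76 and 6.64 in GW3965 livers and 6.35 and 6.18 in vehicle livers. The transcript of this kinase followed the same order with no overlap between groups. Eif2ak2 rose 4.22-fold in Dex+GW3965 livers (2.08 ± 0.09, limma adjusted p = 2.8e-12), 2.47-fold in Dex livers (1.30 ± 0.09, limma adjusted p = 1.2e-09) and 1.36-fold in GW3965 livers (0.44 ± 0.09, limma adjusted p = 0.0016).

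Zbp1, which binds left-handed nucleic acids and triggers cell death through RIPK3, stayed close to background. It read 5.51 and 5.52 in Dex+GW3965 livers, 5.29 and 5.06 in Dex livers, 4.89 and 4.87 in GW3965 livers and 4.62 and 4.54 in vehicle livers. Only the Dex+GW3965 mean was above background, by a margin that leaves an untested bound of 1.02-fold over vehicle. The change as fitted, from a vehicle level under background, was called (limma adjusted p = 8.8e-06). The fit also called Zbp1 higher in Dex than in vehicle livers (limma adjusted p = 0.00075) between 2 levels under background, and gave no call in GW3965 livers (limma adjusted p = 0.096).

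The effect of each compound on top of the other was read next. Of the 6 probe sets above the median on all 8 arrays, all 6 were higher in Dex+GW3965 than in Dex livers (median 0.65, range 0.49 to 0.79), and all 6 were higher in Dex+GW3965 than in GW3965 livers (median 1.53, range 0.90 to 2.47). All 6 were also higher in Dex than in GW3965 livers (median 0.82, range 0.38 to 1.98). Among all tested probe sets, 13.4% were higher and 9.38% lower in Dex+GW3965 than in Dex livers, 19.0% were higher and 16.8% lower in Dex+GW3965 than in GW3965 livers, and 19.4% were higher and 19.9% lower in Dex than in GW3965 livers. After quantile normalization the balance of Dex+GW3965 against GW3965 livers turned to 17.4% higher and 19.0% lower. Ifih1 in Dex against GW3965 livers (0.38, limma adjusted p = 0.0023) was at an adjusted p of 0.051 in limma without GW3965 replicate a. Zbp1, with Dex livers under background, was not called between Dex+GW3965 and Dex livers (limma adjusted p = 0.058), and passed at an adjusted p of 0.046 in limma without Dex replicate a.

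The interaction term asked whether the change with both compounds differed from the sum of the 2 single changes on the log2 scale. Of the 6 probe sets above the median on all 8 arrays, 1 had a positive and 1 a negative interaction at an adjusted p under 0.05, and of all tested probe sets 15.8% had a positive and 6.93% a negative one (11.3% and 9.76% after quantile normalization). Oas1a was the negative one: its change with both compounds fell short of the sum of the single changes by 1.53 on the log2 scale (interaction -1.53 ± 0.09, 95% interval -1.71 to -1.34, limma adjusted p = 7.3e-10). Ddx58 exceeded the sum by 0.66 (± 0.11, 0.44 to 0.88, limma adjusted p = 0.00018). Outside these 6, Oas1b exceeded it by 1.79 (± 0.21, 1.33 to 2.24, limma adjusted p = 9.1e-06) and the Dhx58 probe set 1385276_a_at by 1.10 (± 0.19, 0.71 to 1.50, limma adjusted p = 0.00034), but both had 3 of the 4 groups under background and entered the test through Dex+GW3965 alone, so these fitted values are not counted as support. The brightest Dhx58 probe set gave 0.34 (0.05 to 0.63, limma adjusted p = 0.089) and the third, under background in vehicle livers, gave 0.05 (-0.52 to 0.62, limma adjusted p = 0.93), so the Dhx58 call rests on the dimmest probe set. Oasl (0.29, 0.03 to 0.54, limma adjusted p = 0.096) and Eif2ak2 (0.33, 0.07 to 0.60, limma adjusted p = 0.067) did not pass over all genes, and passed when single arrays were left out: Oasl without Dex+GW3965 replicate b (limma adjusted p = 0.025), and Eif2ak2 without vehicle replicate b (limma adjusted p = 0.028) or Dex+GW3965 replicate a (limma adjusted p = 0.043). The third Dhx58 probe set passed without Dex+GW3965 replicate a (0.52, limma adjusted p = 0.038) and gave -0.42 without replicate b. For Ifih1 (0.17) the interval included 0. No interaction is read for Ddx60 and Zbp1, which were under background in vehicle and GW3965 livers and, for Zbp1, also in Dex livers.

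**Figure D4:**
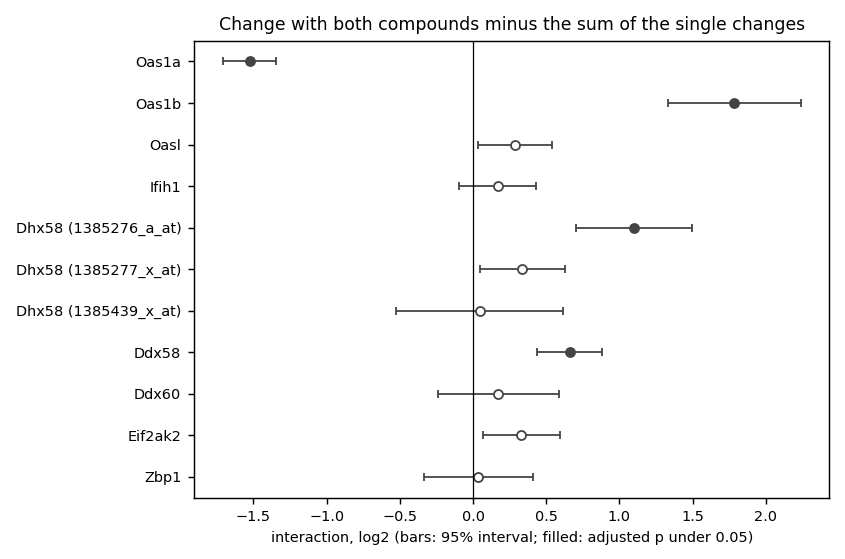
Interaction of Dex and GW3965 on the log2 scale (horizontal axis, bars are 95% intervals) for each probe set (vertical axis), with filled symbols at an adjusted p under 0.05. Oas1a lies below 0 at -1.53, and Oas1b, Dhx58 1385276_a_at and Ddx58 lie above 0. Values are as fitted, and those of Oas1b, Ddx60, Zbp1 and the dimmer 2 Dhx58 probe sets include levels under background.

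The sign for Oas1a depends on the scale on which effects are added. On the linear signal scale, the mean of the Dex+GW3965 arrays was 1349, against 1148 for the sum of the single effects (Dex plus GW3965 minus vehicle), a ratio of 1.18. Both Dex+GW3965 arrays (1319 and 1380) were above that sum. The same ratio was 1.47 for Oasl, 1.64 for Ddx58, 1.49 for Eif2ak2, 1.42 for the brightest Dhx58 probe set and 1.23 for Ifih1. On this scale, added after the log2 values were seen and given with no test, the observed signal was above the sum for all 6 of these probe sets. For the other 5 no ratio is given, since levels under background enter their sums.

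The profiles of the members over the arrays were alike to different degrees. The Pearson correlation over the 8 arrays between a gene and the mean of the other members was 0.99 for Eif2ak2, Dhx58 and Zbp1. It was 0.98 for Ifih1 and Ddx60, 0.96 for Oasl, 0.95 for Ddx58, 0.92 for Oas1a and 0.77 for Oas1b. These are descriptions over 4 groups of 2 arrays, in which the group differences make up most of the variation. The mean profile includes Oas1b, Ddx60 and Zbp1, which were under background in some groups and passed the filter through those where they were high. These correlations are therefore not counted as support. Outside the set, the genes most like the mean profile were Trim34 (r = 0.997), Slfn5 (0.995), Mx2 (0.994), Ifi44l (0.993) and Ube2l6 (0.992). Mx2 changed by 5.13 in Dex+GW3965, 3.41 in Dex and 1.05 in GW3965 livers against vehicle, on the log2 scale. The genes most like Oas1a alone were Usp18 (r = 0.997), Irf9 (0.993), Klf9 (0.991), Ifit3 (0.991) and Osbpl3 (0.990), and 0 genes were on both lists.

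Genes that act upstream of the sensors and downstream of them were counted on lists of pathway members, each gene by its brightest probe set, and their changes are given as log2 fold changes against vehicle. Their counts, and those of the markers, stand against shares over all tested probe sets of 15.6% higher and 21.2% lower in Dex+GW3965, 17.2% and 24.7% in Dex and 5.93% and 14.5% in GW3965 livers, and nothing particular to a list is read from them. Irf7, the transcription factor that drives interferon production after RNA sensing, read 11.32 and 11.33 in Dex+GW3965 livers, 10.30 and 10.19 in Dex livers, 9.02 and 9.01 in GW3965 livers and 7.61 and 7.70 in vehicle livers. Irf7 rose in all 3 treated groups, by 3.67, 2.59 and 1.36 on the log2 scale (limma adjusted p = 8.7e-19, 5.4e-17 and 3.2e-12). Of the 10 adaptors and kinases tested, 3 were higher and 1 lower in Dex+GW3965 livers, 2 were higher and 2 lower in Dex livers and 1 was higher in GW3965 livers. Mavs, the adaptor of RIG-I and MDA5, was not called, with log2 differences of -0.10, -0.08 and -0.11, and Traf3, a ubiquitin ligase below it, fell by 0.49 in Dex+GW3965 livers and fell by 0.28 in Dex livers.

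Among 11 regulators of RIG-I and MDA5, counted against the same shares, 1 was higher and 5 lower in Dex+GW3965 livers, 2 were higher and 7 lower in Dex livers, and 2 were lower in GW3965 livers. The higher one in Dex+GW3965 livers was Trim25, a ubiquitin ligase that activates human RIG-I, with log2 fold changes of 1.36 in Dex+GW3965 and 1.27 in Dex livers and no call in GW3965 livers (-0.01). Rnf125, a ubiquitin ligase that marks RIG-I and MDA5 for degradation, had log2 fold changes of -0.81 in Dex+GW3965, -1.28 in Dex and -0.50 in GW3965 livers, all called. The other members moved by less, and Dhx9, a helicase that binds RNA, fell by 0.53 in Dex livers.

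On the effector side of the synthetases, 2 genes were tested. Pnpt1, an interferon-induced exoribonuclease of mitochondria, was higher by 1.26 in Dex+GW3965 livers and by 0.63 in Dex livers, and Abce1, an RNase L inhibitor, was lower, with log2 fold changes of -0.48, -0.25 and -0.24 in Dex+GW3965, Dex and GW3965 livers. Of 11 activators and inhibitors of PKR and genes of eIF2 alpha control, 4 were higher and 2 lower in Dex+GW3965 livers, 3 were higher and 2 lower in Dex livers, and 2 were higher and 2 lower in GW3965 livers. Their changes were small: the inhibitor Dnajc3 was lower (-0.34, -0.38 and -0.24 in Dex+GW3965, Dex and GW3965 livers), and the activator Prkra was higher by 0.36 in Dex+GW3965 livers. Atf4 was higher by 0.16, 0.29 and 0.24 in Dex+GW3965, Dex and GW3965 livers. Ppp1r15a was higher by 0.41 in GW3965 livers and was not called in the others. Of the 4 partners of ZBP1 in cell death, Ripk1 was higher in Dex+GW3965 livers (0.42), and no partner was called in Dex or GW3965 livers.

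Other nucleic acid sensors and editors numbered 7 tested, of which 4 were higher and 1 lower in Dex+GW3965 livers, 4 were higher and 2 lower in Dex livers and 3 were higher in GW3965 livers. Ifit3, a partner of the RNA-binding IFIT proteins, was called higher in all 3 treated groups: it read 8.86 and 8.82 in Dex+GW3965 livers, 8.33 and 8.31 in Dex livers, 6.14 and 6.26 in GW3965 livers and, under background, 5.07 and 4.86 in vehicle livers. Adar, which edits double-stranded RNA, was higher by 0.92, 0.71 and 0.30.

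Of 13 interferon receptors and members of the ISGF3 pathway, 3 were higher and 6 lower in Dex+GW3965 livers, 2 were higher and 6 lower in Dex livers, and 3 were higher and 2 lower in GW3965 livers. The ISGF3 subunit Irf9 read 8.81 and 8.89 in Dex+GW3965 livers, 8.86 and 8.80 in Dex livers, 8.09 and 8.10 in GW3965 livers and 7.58 and 7.36 in vehicle livers. It was higher by 1.38, 1.36 and 0.63 in Dex+GW3965, Dex and GW3965 livers, and Stat2, its partner, by 0.63, 0.38 and 0.18. In contrast, the interferon regulatory factor Irf8 was lower (-0.95 in Dex+GW3965 and -1.29 in Dex livers), as were Irf1 (-0.33 and -0.84) and the kinase Jak1 (-0.60 and -0.62). Among feedback inhibitors the changes were also split: of 7 tested, the deISGylase Usp18 and the ubiquitin-like modifier Isg15 were higher in all 3 treated groups (Usp18 by 4.52, 3.91 and 1.75, Isg15 by 5.28, 3.77 and 0.86 in Dex+GW3965, Dex and GW3965 livers), and 1 was lower in Dex+GW3965 and 1 in Dex livers.

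**Figure D5:**
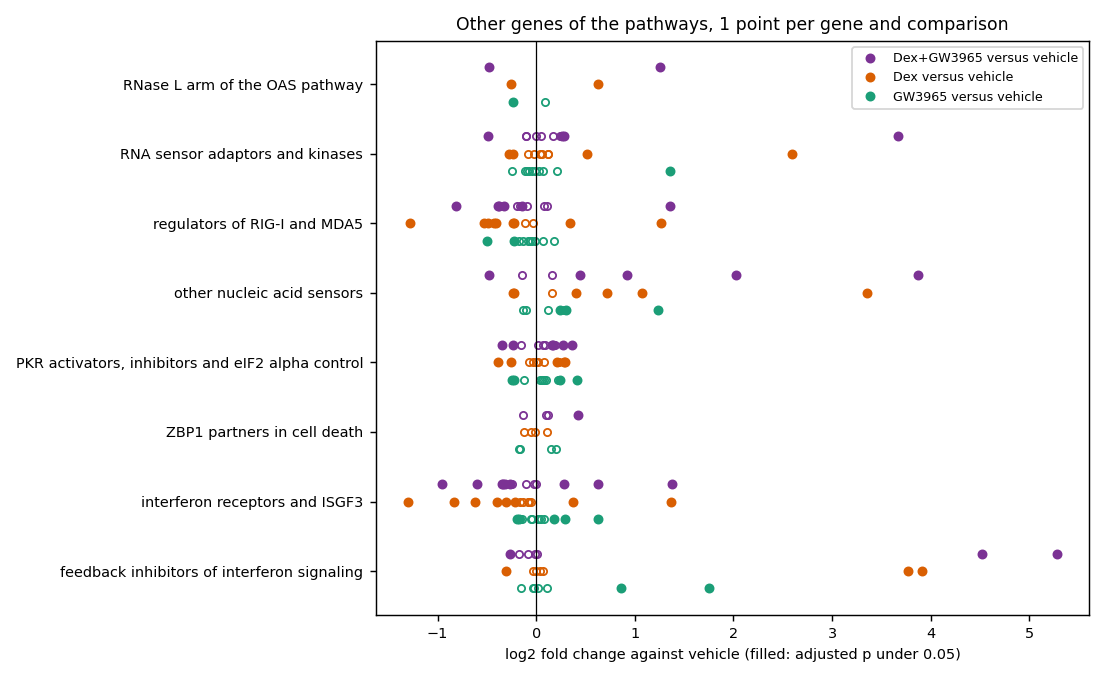
Log2 fold change against vehicle (horizontal axis) of the tested genes on 8 lists around the sensors (vertical axis), 1 point per gene in Dex+GW3965, Dex and GW3965 livers, filled at an adjusted p under 0.05. Most points lie within 1 of 0, and those above 2 belong to Irf7, Ifit2, Ifit3, Usp18 and Isg15.

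Markers of other liver cells were read beside these changes. T and NK cell markers were under background in every group for 6 of 6 genes. Of the 6 Kupffer cell and macrophage markers, 1 was higher and 4 lower in Dex+GW3965 livers, 1 was higher and 3 lower in Dex livers, and 2 were higher in GW3965 livers. Their summed signal was 11.18 to 11.22 on the log2 scale in Dex+GW3965, 11.10 to 11.12 in Dex, 11.70 to 11.71 in GW3965 and 11.23 to 11.24 in vehicle livers. The ones higher in GW3965 livers were Clec4f (0.51) and Cd5l (0.75), the brightest of these markers, which weigh most in the sum. Cd68, Cd163, Csf1r and Adgre1 were not called there. Of the 4 markers of plasmacytoid dendritic cells, Tcf4 was lower in all 3 treated groups and Irf8 in Dex+GW3965 and Dex livers, Tlr7 was under background, and Bst2, which interferon also induces in other cells, was higher by 0.83, 0.77 and 0.79 in Dex+GW3965, Dex and GW3965 livers. Their summed signal, mostly that of Bst2, was 11.39 to 11.41 in Dex+GW3965, 11.32 to 11.33 in Dex, 11.41 in GW3965 and 10.82 to 10.83 in vehicle livers. Neutrophil markers were lower for 2 of 2 genes in all 3 treated groups, with a summed signal of 6.36 to 6.39 in Dex+GW3965, 5.84 to 5.95 in Dex, 5.63 to 5.85 in GW3965 and 7.70 to 7.72 in vehicle livers. Both were under background in Dex and GW3965 livers and 1 of them in Dex+GW3965 livers, so these sums hold mostly background there. Stellate cell markers were lower for 4, 4 and 3 of 5 genes in Dex+GW3965, Dex and GW3965 livers, with summed signals of 9.63 to 9.64, 9.62 to 9.64 and 10.01 to 10.02, against 10.29 to 10.38 in vehicle livers. Sinusoidal endothelial markers were lower for 3, 2 and 1 of 4 genes and higher for 1 gene in GW3965 livers. B cell marker Cd79b was lower in all 3 treated groups. Of 2 tested cholangiocyte markers 1 was higher and 1 lower in Dex+GW3965, 1 was lower in Dex and 2 were lower in GW3965 livers, and of 3 erythrocyte genes 3 were lower in Dex+GW3965 and 1 in Dex livers, while 2 were higher and 1 lower in GW3965 livers. The part of these cells in the changes of the sensors was not tested.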

How the data were processed

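Livers of 4 groups of rats, 2 arrays each, were measured on Affymetrix rat genome arrays from 5 µg of total RNA. The authors deposited log2 signals for 31099 probe sets. The authors' methods describe a re-mapping of the probes to UniGene, signals of perfect-match probes alone and subtraction of the MAS background. MAS5 is the tool named in the submitters' processing notes, with no version. The log2 scale was read from the range of the values, 2.497 to 14.95. Array medians lay within 0.0357 of each other, so the values were not normalized again. The number of arrays limits the precision, and the file gives no detection calls.

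After removal of 57 control probe sets, 16253 probe sets were tested, those that exceeded their array's median at least 2 times. The model had 1 mean for each group and used every array (limma 3.58.1, R 4.3.3, functions lmFit and eBayes with trend, 4 residual and 12.7 prior degrees of freedom), with Benjamini-Hochberg adjustment over all 16253 and calls at 0.05. Scripts were tested on simulated data. Of the 31042 probe sets, 20826 carry 1 gene symbol, 436 several and 9780 none. The named probe sets are all those with a member's symbol alone. Other genes are called genes picked from the lists, those a result turns on, and the 5 genes most correlated with the members. The picked genes are not in every list those with the largest change against vehicle. Members, lists and rules were chosen with earlier results of these data known. Some list genes are not reported here. Promoter windows are those of RefSeq for GRCr8.

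Same-letter arrays were not paired in the model above: their differences within groups correlated between groups from -0.23 to 0.08. Alternatives were quantile normalization, no filter or a stricter one, no intensity trend, the replicate letter as a block, leaving out each array, the methods' t-test on log ratios and, added after the data were seen, crossed letters and the linear scale.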

Additional observations from a re-analysis of the deposited data

Results flagged for a closer look

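In limma over all tested probe sets, 4 probe sets had an interaction call. This term is the effect of Dex in the presence of GW3965 minus its effect without it. The interaction was -1.53 for Oas1a (limma adjusted p = 7.3e-10). It was 1.79 for Oas1b (limma adjusted p = 9.1e-06), 1.10 for the Dhx58 probe set 1385276_a_at (limma adjusted p = 0.00034) and 0.66 for Ddx58 (limma adjusted p = 0.00018), all on the log2 scale. Oas1b and this Dhx58 probe set were under background in Dex, GW3965 and vehicle livers and entered the test through Dex+GW3965 alone. Their values are not counted as support. For Oas1a the sign depends on the scale on which effects are added. With 2 arrays in a group, no single array could be tested as an outlier.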

How the results depend on the processing

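Groups of 2 arrays limit every value here, and signals under background carry no fold. Over all 11 probe sets, including the 5 that entered the test through groups where they were high and are no support, the counts called higher were 11 in Dex+GW3965, 10 in Dex and 7 in GW3965 livers against vehicle, 10 for Dex+GW3965 against Dex, 11 against GW3965, 8 for Dex against GW3965, and 3 positive and 1 negative interactions. With the replicate letter as a block, each of these counts was the same: 11, 10, 7, 10, 11, 8, 3 and 1. The same-letter differences of Dex+GW3965 and vehicle arrays correlated at -0.23, and with the letters of Dex+GW3965 crossed in the block 4 interactions were positive. Under the stricter filter 6 probe sets were left, of which 6 were higher in Dex+GW3965 and 6 in Dex livers against vehicle, 6 in Dex+GW3965 against Dex, 6 against GW3965, and 1 had a positive interaction. The methods' t-test at an unadjusted p of 0.05 called 7, 6, 4, 3, 4 and 4 in the order of comparisons above, and after Benjamini-Hochberg adjustment 0 in every comparison, 0 negative interactions included. With 1 array left out, where the lone array of a group is assumed to vary like the other groups, the GW3965 count ranged from 4 to 7 (4 without vehicle replicate a or either GW3965 array), and positive interactions ranged from 3 to 5 (5 without Dex+GW3965 replicate a).

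Over the single probe sets, leaving out an array left 587 values with the same direction and call, ended 14 calls, made 6 and turned 9 signs. Quantile normalization made 1 call and turned 1 sign, no intensity trend ended 4 and made 3, and without the filter all 77 values kept direction and call. Signs turned only where values were near 0 or levels were under background, and for Oas1a with the scale. With 1 array left out, Oas1b ranged from -0.088 (without Dex replicate a) to 0.21 in Dex against vehicle livers, and was -0.029 without vehicle replicate b. In Dex against GW3965 livers Oas1b ranged from -0.20 to 0.11 (without Dex replicate b). Dhx58 1385276_a_at in GW3965 against vehicle livers ranged from -0.084 (without vehicle replicate a) to 0.16, and was -0.011 after quantile normalization and -0.0063 without GW3965 replicate b. The interaction ranged from -0.076 (without Dex replicate b) to 0.15 for Zbp1, which was -0.0038 without vehicle replicate a, from -0.0054 (without GW3965 replicate b) to 0.35 for Ddx60, and from -0.42 (without Dex+GW3965 replicate b) to 0.52 for Dhx58 1385439_x_at. For Oas1a the log2 ratio of signal to the linear sum was 0.23, and the change of sign follows from the scale.

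Over all probe sets, the methods' t-test at an unadjusted p of 0.05 called 1098 higher and 1235 lower in Dex+GW3965, against 2533 and 3447 in limma, and 1336 higher and 1574 lower in Dex livers, against 2792 and 4014. In GW3965 livers 2362 were lower in limma, 1505 after quantile normalization and 1447 without the intensity trend, and leaving out a GW3965 array left 574 to 609 higher, against 963, and 1230 to 1518 lower. For Dex+GW3965 against Dex livers 2173 were higher and 1525 lower, but 1415 were higher without Dex replicate b, and 904, 941 and 986 were lower without Dex+GW3965 replicate b, Dex replicate a and Dex replicate b. The cause was not tested.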
